A study of Mus musculus with 22 samples.

Results

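The synaptotagmin genes Syt1, Syt2, Syt4, Syt5, Syt6, Syt7, Syt10, Syt11, Syt13 and Syt17 were followed in hippocampal RNA of wild-type (WT) and TgproNGF#3 mice aged 1, 3 or 12 months. Every non-control probe whose RefSeq transcript belongs to one of these 10 genes was taken, which gave 11 probes for 9 genes out of 55681 probes on the array. No probe was matched to Syt5 through the RefSeq gene table, which does not list every transcript named on the array, so a Syt5 probe may have been missed, and Syt6 and Syt7 have 2 probes each. The genes were chosen by the family name, with the log2 differences between the genotypes at the 3 ages already known, so the genotype values given here are a description, carry no p-value and support nothing by themselves.

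Total RNA came from the hippocampus of the right hemisphere of untreated mice, 1 mouse per array, and was hybridized, with Cy3 as the single dye, to whole-genome mouse arrays of Agilent. TgproNGF#3 mice carry a transgene for proNGF, the precursor of Nerve Growth Factor, with a mutated furin cleavage site, followed by IRES and EGFP and driven by the Thy1.2 promoter, which is active in neurons. Line #3 is 1 of 4 founder lines and the only one on these arrays. All mice were of the C57Bl/6xDBA/2 strain, and the WT mice differ from them by the absence of the transgene. There were 4 TgproNGF#3 and 4 WT males of 1 month, 4 and 4 males of 3 months, and 3 and 3 females of 12 months.

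Synaptotagmins are membrane proteins with a pair of C2 domains that bind phospholipids and, in many members, Ca2+. Syt1 and Syt2 sit on synaptic vesicles and trigger fast transmitter release, while Syt7 serves slower forms of release and vesicle replenishment. Syt4 and Syt11 have a first C2 domain that does not bind Ca2+ in the usual way, and Syt13 and Syt17 are atypical members. Syt10 and Syt4 are known as genes whose transcription rises after seizures, Syt10 is a target of the activity-dependent transcription factor Npas4, and the Syt10 protein acts in the release of IGF-1 from olfactory bulb neurons.

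Because Syt10 is described as activity-regulated, the start of the gene was searched for the core of the cAMP response element, TGACG. In the RefSeq promoter window of Syt10 (250 bases before and 50 after the start site), it occurred 217 bases before the start, on the minus strand of chr15:89842061-89842090 (GRCm38.p6), shown 5′ to 3′ with the core in capitals.
Syt10: aatgaaaagagtgTGACGggggctcagaaa
Searched on both strands, TGACG was found in 20.8% of 32851 RefSeq promoter windows. The full element TGACGTCA was found in 1.79% of windows and the motif TCGTG, bound by Npas4, in 16% of windows, and neither occurred in the window of Syt10. Over the 9 windows of the 5 member genes with an entry, TGACG was found in 2, TCGTG in 1 and TGACGTCA in 0.

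Levels are log2 intensities on a scale where 0 is the 75th percentile of an array's spots well above background, and differences are TgproNGF#3 minus WT. Between 57.6% and 80.27% of spots were well above background, the higher shares being those of 1 month. All 8 genes fixed as a check of hippocampal and neuronal tissue (Neurod2, Neurod6, Camk2a, Slc17a7, Snap25, Rbfox3, Zbtb20 and Nrgn) were above background on all 22 arrays. A probe was called by the study's thresholds, an unadjusted limma p below 0.05 and a log2 difference above 1 or below -1. Each age was hybridized on 1 slide. At 12 months the 3 TgproNGF#3 arrays lay in the same row of the slide as WT replicate 3, and the other 2 WT arrays lay in the other row. In bulk tissue, fewer cells of a type and less RNA per cell cannot be told apart.

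Among the synaptotagmin probes compared, Syt10 had the most negative difference from WT at 1 and 3 months. At 1 month the Syt10 probe A_51_P318830 read -3.08, -2.92, -2.90 and -0.84 in the 4 TgproNGF#3 mice and 0.00, 0.39, 0.19 and -0.84 in the 4 WT mice. TgproNGF#3 replicates 1, 2 and 3 lay far below every WT mouse, while TgproNGF#3 replicate 4 and WT replicate 4 had the same level to the second decimal. The difference was -2.37 (SE 0.482), or 5.17-fold lower, and within the rows of the slide it was -3.19 in one and -1.55 in the other. Without TgproNGF#3 replicate 4 the difference in Syt10 was -2.90. With arrays aligned over the probes above background on every array, replicate 4 of TgproNGF#3 (-1.56) passed replicate 4 of WT (-1.61), so the groups then overlapped.

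At 3 months Syt10 read -4.58, -2.36, -2.36 and -5.03 in TgproNGF#3 mice and 0.15, -0.44, -1.37 and -0.76 in WT mice. The groups did not overlap, the highest TgproNGF#3 mice (-2.36) lying below the lowest WT mouse (-1.37). The difference was -2.98 (SE 0.631), or 7.89-fold, and was -3.33 and -2.64 within the rows of the slide.

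At 12 months Syt10 read 2.01, -2.19 and 1.2 in TgproNGF#3 mice and 0.50, 1.30 and 1.38 in WT mice. A single TgproNGF#3 mouse was low and the other two were within or above the WT range. The difference of -0.72 (SE 0.971) turned to 0.54 without TgproNGF#3 replicate 2, and was -1.55 without replicate 1 and -1.15 without replicate 3. The SD of Syt10 among TgproNGF#3 mice was 1.07 (n = 4), 1.42 (n = 4) and 2.23 (n = 3) in order of age, beside 0.538, 0.634 and 0.484 among as many WT mice. Whether the differences of Syt10 between ages exceed the spread between mice was not tested.

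**Figure D1:**
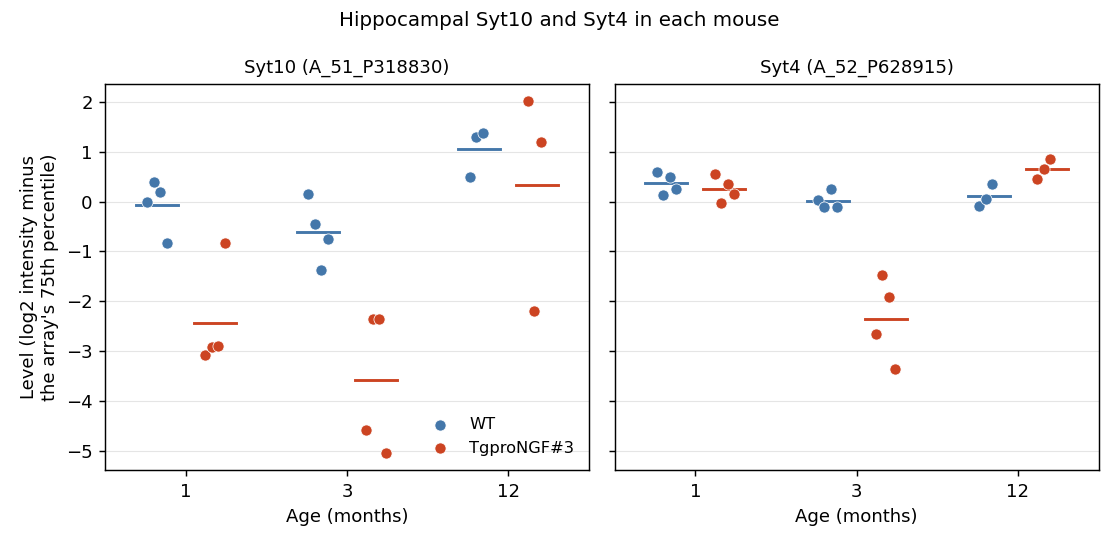
Level of the Syt10 and Syt4 probes in each of the 22 mice by age in months, as log2 intensity minus the array's 75th percentile, with WT in blue, TgproNGF#3 in red and a bar at each group mean. Syt10 was low in 3 of 4 TgproNGF#3 mice at 1 month, in 4 of 4 at 3 months and in 1 of 3 at 12 months, whereas Syt4 was low in TgproNGF#3 mice at 3 months alone.

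Syt4, the other member described as induced by seizures, was low at 3 months only. The Syt4 probe A_52_P628915 then read -2.66, -1.48, -1.91 and -3.35 in TgproNGF#3 mice and 0.04, -0.11, 0.25 and -0.11 in WT mice. The difference was -2.37 (SE 0.354), or 5.16-fold lower, with the groups well apart, and it was -2.03 and -2.70 within the rows of the slide. The mice with the lowest Syt4 at 3 months, TgproNGF#3 replicates 1 and 4, were also those with the lowest Syt10.

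At 1 month Syt4 read 0.55, -0.03, 0.36 and 0.16 in TgproNGF#3 and 0.59, 0.13, 0.50 and 0.25 in WT mice, which overlapped almost fully (difference -0.11, SE 0.189). At 12 months Syt4 read 0.46, 0.65 and 0.86 in TgproNGF#3 and -0.08, 0.05 and 0.35 in WT mice, so that every TgproNGF#3 mouse lay above every WT mouse. That difference in Syt4 was 0.55 (SE 0.173), below the threshold of 1, and was 0.31 against the WT mouse in the same row of the slide.

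Of the Ca2+ sensors of release, Syt1 and Syt7 differed less than Syt10 and Syt4 at 3 months, and Syt2 was compared at 1 month only. Syt1, the sensor for fast release in forebrain neurons, had the brightest spots of the members, with intensities from 39800 to 112000. At 3 months Syt1 read 4.33, 4.61, 4.79 and 3.84 in TgproNGF#3 and 5.43, 4.79, 4.83 and 5.14 in WT mice. The groups met at 4.79 and the difference was -0.65 (SE 0.233). At 12 months Syt1 read 5.37, 5.52 and 5.50 against 5.11, 5.01 and 5.34, higher in each TgproNGF#3 mouse by a mean of 0.31 (SE 0.144), and at 1 month the difference was -0.11 (SE 0.181).

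Syt2, the fast sensor of parvalbumin interneuron terminals, was close to background, with intensities of 14.6 to 97.5 where it was measured, on 15 of 22 arrays. At 3 months the Syt2 probe was well above background in 4 of 4 WT mice, at -4.31, -6.20, -5.71 and -5.16, and in 1 of 4 TgproNGF#3 mice, at -6.95. At 12 months Syt2 was measured in 2 of 3 WT mice and in 1 of 3 TgproNGF#3 mice, and at 1 month in 4 of 4 and 3 of 4 with a difference of -0.61 (SE 0.412). With fewer than 2 values in a group, no difference was computed for Syt2 at 3 and 12 months on this scale. With spots not well above background kept, Syt2 was called at 3 months, beside Syt4 and Syt10, a value that rests on 3 TgproNGF#3 spots near background.

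Syt7, a sensor for slow release, has a brighter and a dimmer probe for the same transcript. The brighter Syt7 probe A_51_P359173 did not separate the genotypes at any age, with differences of 0.27, 0.03 and -0.11 (SE 0.200, 0.125 and 0.165) at 1, 3 and 12 months. The dimmer Syt7 probe A_55_P2044059, with intensities from 43 to 173, read -5.36, -5.29, -5.42 and -5.30 in TgproNGF#3 mice of 3 months and -4.91, -4.94, -4.81 and -4.87 in WT mice. These groups were apart by a difference of -0.46 (SE 0.117), which the brighter probe of Syt7 did not show in the same RNA. At 1 and 12 months the dimmer probe differed by 0.12 (SE 0.248) and -0.03 (SE 0.218).

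**Figure D2:**
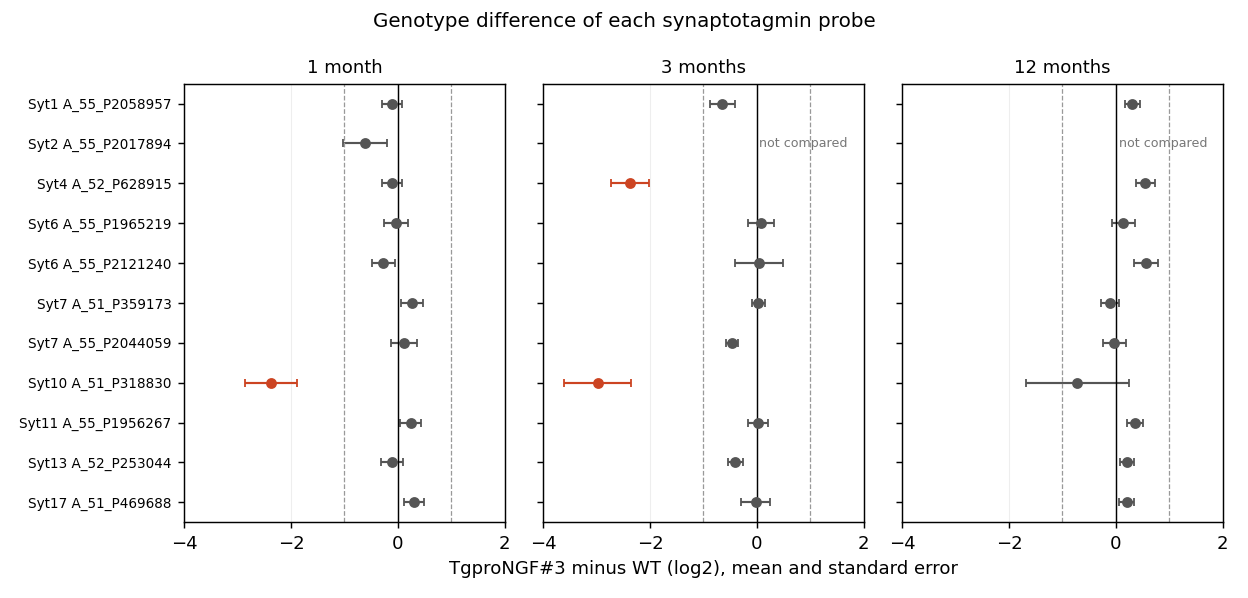
TgproNGF#3 minus WT difference on the log2 scale of each synaptotagmin probe at 1, 3 and 12 months, with points at the estimate, bars for the standard error and dashed lines at -1 and 1. Called probes are red: Syt10 at 1 month (-2.37), and Syt10 (-2.98) and Syt4 (-2.37) at 3 months.

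The remaining members differed by less than 1 log2 unit at each age. Syt13, an atypical synaptotagmin, read 3.18, 3.01, 2.76 and 3.04 in TgproNGF#3 mice of 3 months and 3.41, 3.26, 3.56 and 3.35 in WT mice. The groups of Syt13 were apart with a difference of -0.40 (SE 0.141). At 12 months Syt13 was higher in each TgproNGF#3 mouse, at 3.70, 3.78 and 3.83 against 3.52, 3.52 and 3.65 (difference 0.21, SE 0.127). At 1 month the difference of Syt13 was -0.11 (SE 0.206).

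Syt11, which is abundant in brain and controls vesicle recycling, had overlapping groups of 1 month (difference 0.24, SE 0.196) and of 3 months (0.02, SE 0.190). At 12 months Syt11 read 4.13, 4.23 and 4.1 in TgproNGF#3 and 3.8, 3.61 and 4.01 in WT mice, a difference of 0.35 (SE 0.150) with the groups apart. Against the WT mouse in the same row of the slide, the 12-month differences were 0.12 for Syt1, 0.14 for Syt11 and 0.12 for Syt13, each smaller than against all WT mice. In that row Syt10 differed by -1.04 and Syt17 by 0.35, both larger in size than against all WT mice. The brighter Syt6 probe turned to -0.29, the dimmer was at 0.09, and the brighter and dimmer Syt7 probes were at 0.03 and -0.01. A fit with the array row as a block gave the same values, since only that row holds both genotypes at 12 months.

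Syt6 and Syt17 overlapped between the genotypes at every age at which all mice had a value. Syt6, a close relative of Syt10, differed at its brighter probe A_55_P1965219 by -0.04, 0.08 and 0.14 (SE 0.225, 0.240 and 0.218) at 1, 3 and 12 months. Its dimmer probe A_55_P2121240 differed by -0.27 (SE 0.217), 0.04 (SE 0.449) and 0.57 (SE 0.227), the 3-month value without TgproNGF#3 replicate 4, whose spot was not well above background. Syt17, an atypical member, differed by 0.30 (SE 0.192), -0.02 (SE 0.268) and 0.20 (SE 0.140).

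**Figure D3:**
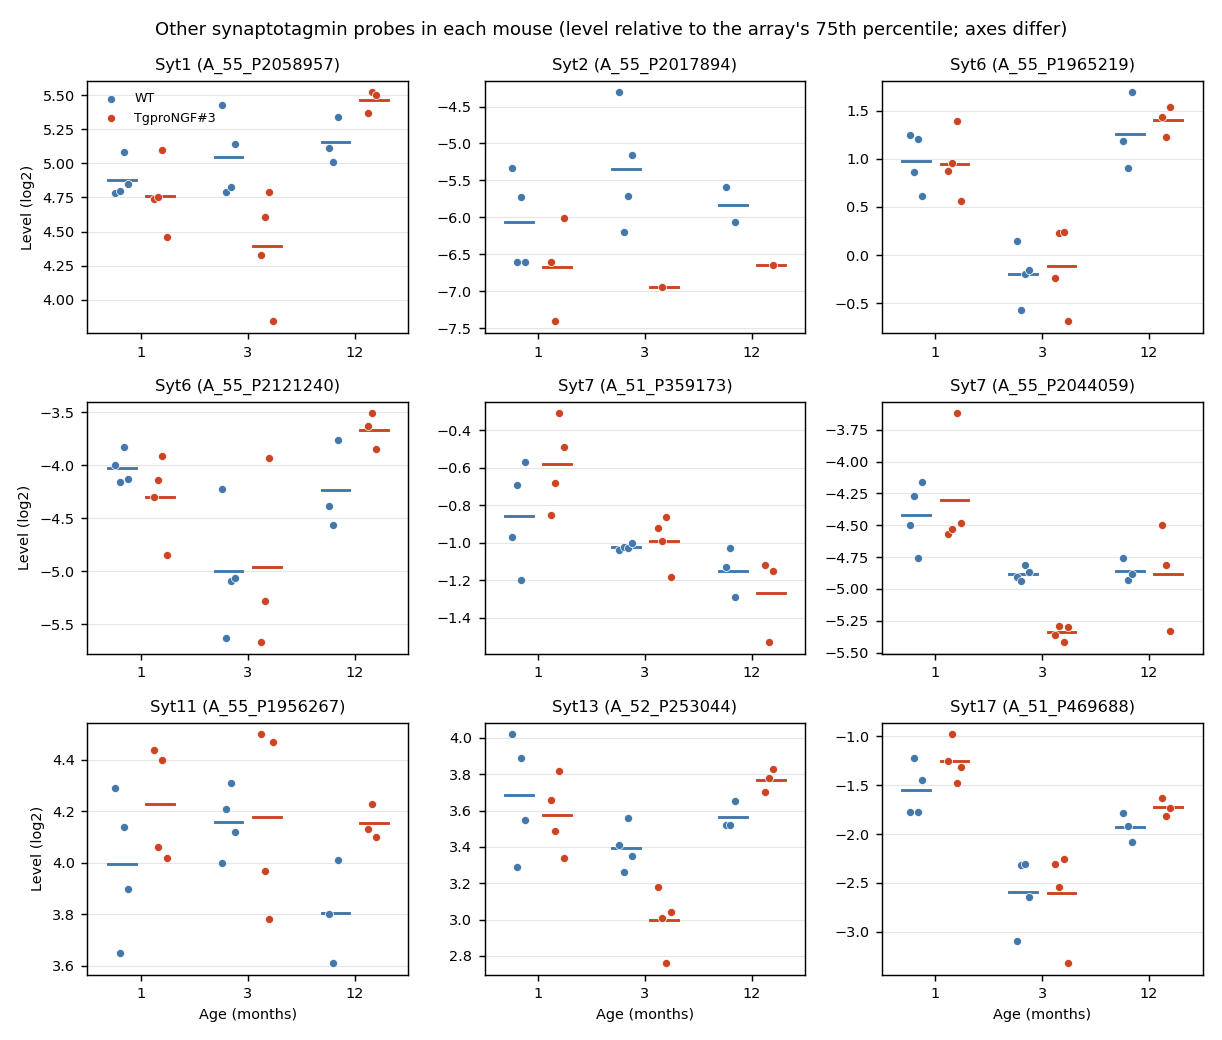
Level of the other 9 probes in each mouse by age in months (log2, relative to the array's 75th percentile, a separate axis for each probe), WT in blue and TgproNGF#3 in red with a bar at each group mean. Groups were apart in the dimmer Syt7 probe and Syt13 at 3 months and in Syt1, Syt11 and Syt13 at 12 months.

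Over the 11 probes, 1 of 11 tested was called at 1 month, 2 of 10 at 3 months and 0 of 10 in the oldest mice, all lower in TgproNGF#3. Among all probes tested, 0.57% of 40536, 6.76% of 33593 and 1.3% of 34064 were called, 0.328%, 6.12% and 0.992% as lower and 0.242%, 0.643% and 0.311% as higher. At an adjusted p below 0.05 instead, 0%, 8.43% and 0% of all probes passed, and 0, 3 and 0 of the synaptotagmin probes. The median difference of the synaptotagmin probes was -0.11, -0.21 and 0.20, beside 0.07, -0.12 and 0.01 for all probes. At 1 month 231 probes were called in all. With the replicate number as a block, since same-numbered arrays of that age shared a row of the slide and deviated together, 452 probes were called and Syt10 was again the only synaptotagmin among them, at -2.37 (SE 0.471). The TgproNGF#3 mice lay entirely below WT in 1 probe at 1 month (Syt10) and in 4 at 3 months (Syt4, the dimmer Syt7 probe, Syt10 and Syt13). They lay entirely above WT in 4 at 12 months (Syt1, Syt4, Syt11 and Syt13). Over all probes with values on every array of an age, such separation was found in the lower direction for 0.432%, 13.6% and 6.86% of probes at the 3 ages, and in the higher direction for 1.73%, 5.9% and 7.61%. Nothing is read from these counts, because the members were chosen with this contrast known.

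WT levels over the ages, which did not enter the choice, were tested with limma across the 11 WT arrays, aligned over the 28911 probes above background on all arrays, with Benjamini-Hochberg adjustment over 33683 probes. Age cannot be told apart from slide, nor the steps to 12 months from sex. Syt10 rose at 12 months. Its aligned levels were -1.15, -0.30, -0.65 and -1.61 in WT mice of 1 month, -0.34, -0.90, -1.80 and -1.23 in those of 3 months, and 0.16, 0.80 and 0.87 in the oldest, so that every mouse of 12 months lay above every younger one. The rise of Syt10 was 1.68 (SE 0.365, limma adjusted p = 0.0143) from 3 to 12 months and 1.54 (SE 0.365, limma adjusted p = 0.029) from 1 to 12 months. From 1 to 3 months Syt10 differed by -0.14 (SE 0.338, limma adjusted p = 0.819). The difference from 1 to 12 months missed an adjusted p of 0.05 without WT replicate 1 or 4 of 1 month or any 1 of the WT replicates of 12 months, with estimates for Syt10 between 1.31 and 1.76. With median scaling this rise of Syt10 was 0.79 and missed it as well. With the spread estimated from all 22 arrays, in which the TgproNGF#3 mice differ widely in Syt10, the adjusted p was 0.184 from 3 to 12 months and 0.266 from 1 to 12 months.

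Syt6 fell from 1 to 3 months and rose again by 12 months. The brighter Syt6 probe read 0.10, 0.18, 0.36 and -0.17, then -0.35, -1.03, -0.63 and -0.64, then 0.84, 0.40 and 1.18, without overlap between the ages. The changes were -0.78 (SE 0.195, limma adjusted p = 0.0254) and 1.47 (SE 0.211, limma adjusted p = 0.00346). The dimmer Syt6 probe changed in the same directions, by -0.58 (SE 0.263) and 0.78 (SE 0.284), but did not pass (limma adjusted p = 0.167 and 0.0918). The rise from 3 to 12 months passed under all 21 other settings, and the fall of Syt6 lost its call without WT replicate 2 or 3 of 1 month or without WT replicate 2 or 4 of 3 months (limma adjusted p at most 0.0639). With median scaling the fall was -1.40 and passed.

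Syt11 rose from 1 to 3 months by 0.56 (SE 0.131, limma adjusted p = 0.0196), from 3.14, 2.97, 3.30 and 3.12 to 3.50, 3.75, 3.88 and 3.64. Syt1 rose from 1 to 12 months by 0.69 (SE 0.185, limma adjusted p = 0.0445), from 3.63, 4.12, 4.24 and 4.07 to 4.76, 4.51 and 4.83. Both rises depended on the alignment of the arrays, since with median scaling they were -0.06. They also lost their calls when 1 mouse was left out: Syt11 without WT replicate 4 of 1 month or of 3 months, and Syt1 without WT replicate 1, 2 or 4 of 1 month, replicate 4 of 3 months or any 1 of the WT replicates of 12 months. From 1 to 3 months Syt1 differed by 0.57 (SE 0.172, limma adjusted p = 0.051), which passed under some of the alternatives.

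Of 11 probes, 1 rose and 1 fell from 1 to 3 months, 2 rose from 3 to 12 months and 2 rose from 1 to 12 months. Of all probes 13.3%, 13.6% and 8.24% passed, 5.8%, 9.89% and 6.38% rising and 7.49%, 3.67% and 1.87% falling. Syt2, Syt4, Syt7, Syt13 and Syt17 passed at no step on this scale. With median scaling Syt4, Syt17 and 1 Syt7 probe passed from 1 to 3 months, with the percentile over the spots left on each array Syt17 and 1 Syt7 probe did, and Syt2 passed without WT replicate 2 of 3 months. Syt4 had WT means of -0.49, -0.45 and -0.35 and differences of 0.04 (SE 0.125) and 0.10 (SE 0.135). Syt13 means were 2.83, 2.93 and 3.11 and those of the Syt7 probes -1.72, -1.49 and -1.61 (brighter) and -5.29, -5.35 and -5.31 (dimmer). Syt17 fell and rose with Syt6 in its means (-2.42, -3.06 and -2.38) but did not pass (limma adjusted p = 0.101 and 0.109). Syt2 was at -6.93, -5.81 and -6.26, with a difference of 1.12 (SE 0.377, limma adjusted p = 0.0763) from 1 to 3 months.

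**Figure D4:**
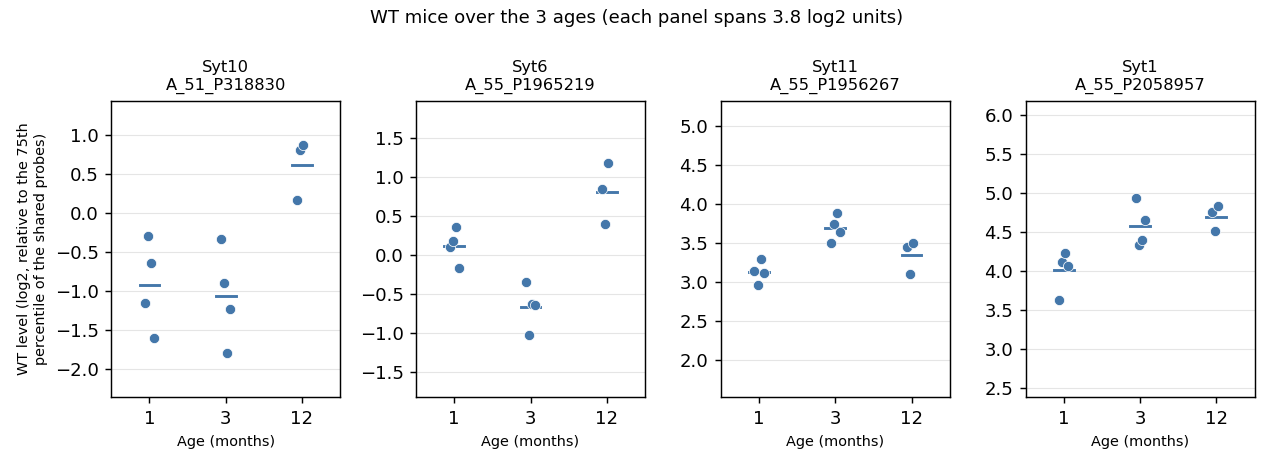
WT level of Syt10, Syt6 (brighter probe), Syt11 and Syt1 in each mouse by age in months, as log2 intensity relative to the 75th percentile of the probes above background on all 22 arrays, with a bar at the mean and the same span in every panel. Syt10 was highest at 12 months and Syt6 lowest at 3 months.

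With the 6 groups set in order on this aligned scale, Syt10 ran from 0.61 in WT mice of 12 months through -0.20 (TgproNGF#3, 12 months), -0.93 (WT, 1 month), -1.07 (WT, 3 months) and -3.38 (TgproNGF#3, 1 month) to -3.97 (TgproNGF#3, 3 months). Each of these neighbours overlapped. Syt4 ran from 0.11 in TgproNGF#3 mice of 12 months to -0.35, -0.45 and -0.49 in WT mice of 12, 3 and 1 months, -0.68 in TgproNGF#3 mice of 1 month and -2.74 in those of 3 months. For Syt4 only the first and the last group stood clear of their neighbours.

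The mice in which Syt10 was low were also those in which a probe of Mirg, a maternally expressed noncoding RNA that hosts microRNAs, was low. With the mean of each age subtracted, the level of Mirg probe A_55_P2048867 correlated with that of Syt10 by 0.98 over the 22 arrays and by 0.935 over the 11 WT arrays, the highest of 28898 probes with values on all arrays. This Mirg probe read -2.42, -2.20, -2.13 and -1.09 in TgproNGF#3 mice of 1 month and 0.30, 0.48, 0.28 and -0.91 in WT mice. At 12 months it read 1.69, -2.12 and 0.90 in TgproNGF#3 mice, low in the same mouse as Syt10. A further Mirg probe, A_66_P121059, correlated with Syt10 by 0.198 and differed between the genotypes by 0.09, -0.13 and 0.01. Probe sequences were not used here, so whether A_55_P2048867 reads Mirg or another transcript was not tested.

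The next genes by likeness to Syt10 were Tox4 (0.906), Tmed5 (0.884), Sp140 (0.864) and Tspan18 (0.845), each at 1 of its probes. Over the 11 WT arrays the same probes correlated with Syt10 by 0.763, 0.62, 0.606 and 0.341. Other probes of Tox4 and Tmed5 correlated by -0.408 to 0.056, and those of Tspan18 by 0.567 and 0.553. For comparison, 90% of the probes correlated with Syt10 by between -0.44 and 0.589, with a median of 0.089. Of the 20 probes most like Syt10, 13 were annotated by a genome interval and not by a gene transcript, where 17.1% of the probes compared are. The arrays share slides and genotypes, so these correlations are a description.

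**Figure D5:**
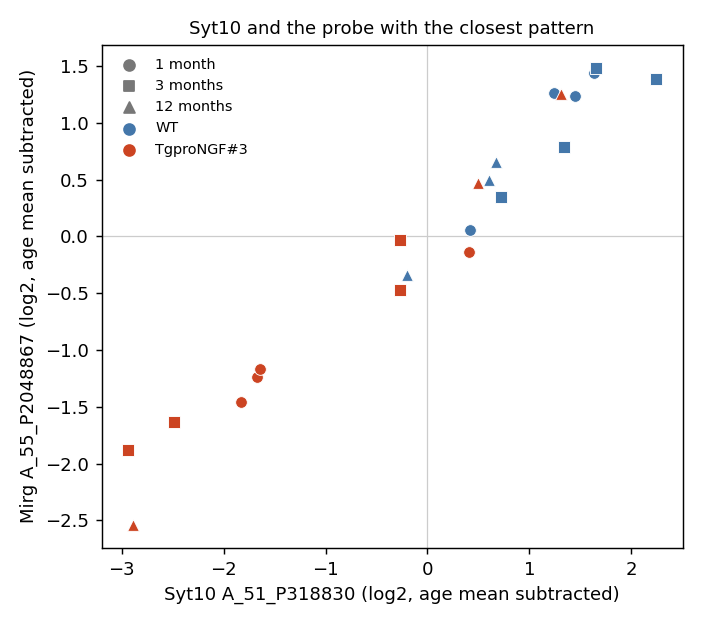
Level of Mirg probe A_55_P2048867 against that of Syt10 in each of the 22 mice (log2, mean of each age subtracted), with WT in blue, TgproNGF#3 in red and circles, squares and triangles for 1, 3 and 12 months. The points lie along a single line (r = 0.98) that also holds the WT mice.

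Among the synaptotagmins, Syt4 correlated with Syt1 by 0.805, with Syt10 by 0.627 and with Syt13 by 0.607 after the same subtraction, and Syt10 with Syt11 by -0.516. The brighter and dimmer probes of Syt7 correlated by 0.435. The genes next to Syt10 on its chromosome with probes on the array (Acr, Rabl2, Alg10b and Cpne8) did not follow it. At 3 months their 5 probes differed by -0.28 to 0.55, and none was called at any age.

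The other genes of vesicle release were mostly not called. The gene lists here and below were chosen with earlier results of these data known, so the p-values of their genes are a description. Over all genes tested, with 1 probe each, 0.19%, 3.88% and 0.993% were called lower at 1, 3 and 12 months, and 0.19%, 0.82% and 0.373% higher. Of the 7 other synaptotagmins, 5 were tested at 3 months and 1 was called, Syt12 (-2.13, SE 0.204, limma adjusted p = 0.00153), with a WT mean of -4.51 and without the arrays on which its spot was not well above background. Of 22 relatives with C2 domains, 1 was called at 3 months: Rims1, an active zone scaffold (-1.02, SE 0.341, limma adjusted p = 0.0931). Doc2a, a Ca2+ sensor of vesicle release, and Sytl2 and Esyt1 were higher with limma adjusted p = 0.0277, 0.0138 and 0.0493 at differences of 0.98, 0.87 and 0.61, under the threshold of 1. They were named after their values were seen.

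None of 30 genes for SNARE proteins and their regulators was called at any age (limma, unadjusted p below 0.05 for 1, 4 and 2 of them), and their median difference was 0.07, 0.06 and 0.21 at 1, 3 and 12 months. Of 22 vesicle proteins and synaptotagmin partners, 21 were tested at 3 months and 1 was called, the vesicle glycoprotein Sv2c (1.12, SE 0.327, limma adjusted p = 0.0701), likewise without some arrays. The median differences of the other synaptotagmins were 0.23, 0.15 and 0.31, those of the C2 relatives 0.10, -0.10 and 0.07, and those of the vesicle proteins 0.04, -0.01 and 0.19. Over all genes tested the medians were 0.07, -0.06 and 0.06.

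Because Syt10 and Syt4 are described as activity-induced, 25 genes induced by neuronal activity were set beside them. None was called at 1 month, where Syt10 was low, or at 12 months (limma, unadjusted p below 0.05 for 1 and 2), and the medians were -0.01 and 0.25. At 3 months 7 of 23 tested were called lower, beside 3.88% of all genes tested. Lower at an unadjusted limma p below 0.05 were 14, of which 4 passed an adjusted p of 0.05. The median was -0.66, beside -0.06 over all genes. The largest differences were those of the transcription factor genes Egr2 (-2.12, SE 0.463, limma adjusted p = 0.025), Junb (-1.38, SE 0.493, limma adjusted p = 0.11) and Fosb (-1.31, SE 0.381, limma adjusted p = 0.0633) and the phosphatase gene Dusp1 (-1.39, SE 0.451, limma adjusted p = 0.0875). Egr4, Fos and Dusp6 were called as well. Whether neuronal activity had a part in the Syt10 and Syt4 levels was not tested.

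Markers of the cell types in the tissue were read the same way. Of 8 markers of parvalbumin interneurons, which hold Syt2, 1 of 7 tested was called at 3 months, the potassium channel Kcnc1 (-1.87, SE 0.267, limma adjusted p = 0.00499). Pvalb itself differed by 0.05, -0.04 and 0.34 (SE 0.186, 0.215 and 0.159). The median difference of the list was 0.02, 0.07 and 0.43 at 1, 3 and 12 months. At an unadjusted limma p below 0.05, 1 marker was lower at 1 month, 1 lower and 1 higher at 3 months, and 2 higher at 12 months. None of 5 CA1, 5 CA3, 8 striatal, 7 thalamic, 8 oligodendrocyte and 10 choroid plexus markers was called at any age at which it was tested (4 and 3 of the CA3 markers at 3 and 12 months, and 6 of the thalamic markers at each of these ages), although at 3 months 1 CA1, 1 CA3 and 1 thalamic marker were lower and 1 oligodendrocyte marker higher at a limma adjusted p below 0.05. Of 6 dentate granule markers, C1ql2 was called at 12 months (-1.05, SE 0.438, limma adjusted p = 0.549). At 3 months 2 dentate granule markers were lower at an unadjusted limma p below 0.05 (median -0.19). At that threshold 4 oligodendrocyte markers were higher and 1 lower (median 0.33), and 2 thalamic markers were lower and 1 higher (median -0.18). Of 10 leptomeningeal markers, 6 were called lower at 12 months, led by Fmod (-1.85), Aldh1a2 (-1.55), Slc6a13 (-1.42) and Slc22a6 (-1.27), and none at 1 and 3 months. At 3 months their median was 0.55, with 4 higher at an unadjusted limma p below 0.05 and 1, Islr (0.75, SE 0.156), at a limma adjusted p of 0.0213. Levels of a list's genes were also summed on each array with dim spots kept, in multiples of the 75th percentile with those spots included. The sum of the choroid plexus markers ran from 10.1 to 297 among WT mice of 1 month and from 11.7 to 180 among TgproNGF#3 mice. For WT and TgproNGF#3 mice in turn these sums ran from 196 to 305 and from 17.9 to 371 at 3 months, where Syt10 and Syt4 were low, and from 28.4 to 486 and from 22.3 to 315 at 12 months, and the median differences of the list were -0.48, -0.86 and -0.96 at 1, 3 and 12 months. The sum of the dentate granule markers ran from 12.1 to 19.6 and from 14.5 to 21.8 at 1 month, and from 15.1 to 19.9 and from 12.9 to 25.2 at 3 months, the ages at which Syt10 was low. At 3 months oligodendrocyte sums were apart, at 147 to 184 in WT and 191 to 260 in TgproNGF#3 mice. Also apart were leptomeningeal sums (19.5 to 31 and 32.8 to 37.5) and thalamic sums (4.61 to 5.79 and 5.88 to 6.89). The sums of the other cell types overlapped at 3 months. The part of these cell types in the synaptotagmin levels was not tested.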

How the data were processed

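The authors deposited, for each of 62976 spots per array, the Cy3 intensity that Agilent Feature Extraction 10.7.3.1 computed after background subtraction and spatial detrending, without scaling between arrays, and a table of log2 values aligned to the 75th percentile (software per the file headers and the study's methods). The spot intensities were used here, and 0 columns were without a sample. No spot was saturated. Spots that were controls, outliers or not well above background were removed, and log2 intensities, less the 75th percentile of their array, were averaged per probe. Before scaling the percentile lay between 10.413 and 11.964 (log2), and the number of arrays limits the precision.

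Probes were named through RefSeq transcripts in a GRCm38.p6 gene table (28026) or the symbols of the study's list (179). The labels do not say that mice of a group came from separate litters. Genotypes were compared at each age by limma 3.58.1 (R 4.3.3, eBayes, two-sided tests), given 2 or more values per group. WT ages were compared in 1 fit. For gene lists the brightest tested probe of a gene was taken. The procedure was tested on simulated data. Members and lists were chosen with earlier results of these data known. All member probes are named, of each list up to 4 called genes per age and Pvalb, and the 5 genes most like Syt10. Sytl2, Doc2a, Esyt1, Islr, Egr4, Fos and Dusp6 and the genes beside Syt10 were named after their values were seen.

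Replicate numbers were taken as a possible pairing of the arrays of 1 month. Same-numbered arrays share a row of the slide, and their deviations from group means had correlations of 0.511, 0.272, 0.191 and 0.208 (36103 probes). The pairing is not certain, since a row holds other replicate numbers too and TgproNGF#3 replicate 4 correlated best with WT replicate 2. Replicate numbers did not pair the arrays of 3 and 12 months (-0.356 to 0.05). As alternatives, dim or outlier spots were kept, probes were required above background on every array, the percentile was taken over all spots or over probes above background on all arrays, median or quantile scaling, a normexp correction with offset 50 on median signals or the authors' log2 values were used, all 22 arrays shared 1 fit, replicate number or array row was a block, and each mouse was left out.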

Additional observations from a re-analysis of the deposited data

Results flagged for a closer look

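Syt10 in TgproNGF#3 replicate 4 of 1 month was at -0.84, far from the other 3 mice of the group, which lay between -3.08 and -2.90 (gap over range 0.918). The dimmer Syt7 probe A_55_P2044059 in TgproNGF#3 replicate 3 of 1 month was at -3.62, with the others between -4.57 and -4.48 (gap over range 0.91). These 2 came from 41 groups of 4 values examined, and chance sets apart about 1 group in 20.

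Of 3 genes, every TgproNGF#3 mouse was below the WT mean at 3 months and above it at 12 months. For Syt4 the mean differences were -2.37 (single mice -3.37 to -1.50) and 0.55 (0.35 to 0.75). For Syt1 they were -0.65 (-1.20 to -0.26) and 0.31 (0.21 to 0.37), and for Syt13 -0.40 (-0.64 to -0.22) and 0.21 (0.14 to 0.26). The difference between the ages was not tested, and the mice of 3 months were males on another slide than the females of 12 months. Against the WT mouse in the same row of the slide, the 12-month differences were 0.31 for Syt4, 0.12 for Syt1 and 0.12 for Syt13. Over all probes with values on every array, TgproNGF#3 lay entirely below WT for 13.6% at 3 months and entirely above for 7.61% at 12 months. The share of all probes with the pattern of these genes is not given.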

How the results depend on the processing

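The called differences of Syt10 and Syt4 kept their direction under every alternative run; for genes that are no members, only counts of calls were recomputed. Apart from leaving out mice, Syt10 lay between -2.45 and -2.20 at 1 month and between -2.98 and -2.55 at 3 months, and Syt4 between -2.37 and -2.23 at 3 months. With an adjusted p below 0.05 as the call, the count of synaptotagmin probes was 0 at 1 month in place of 1, with 0 of all 40536 probes. With single mice left out it was 1 to 1 at 1 month, 2 to 2 at 3 months and 0 to 0 at 12 months. The replicate block gave 1, 2 and 0 probes and changed no call. At 3 months the median of all probes was -0.12, and 0.00 with the percentile over all spots, 0.01 with dim spots kept and -0.01 with quantile normalization. At 12 months it was 0.01, and 0.16 with median scaling and -0.12 with dim spots kept. The lists with a single called gene (Syt12, Rims1, Sv2c, Kcnc1 and C1ql2) had 0 under at least 1 alternative each. Those of Syt12 and Rims1 also had 2 under at least 1 alternative each. Lists with 0 had 1 under at least 1 alternative for the leptomeningeal markers and the hippocampus check at 3 months and for the CA3 markers and vesicle proteins at 12 months, and the activity-induced genes called at 3 months numbered 6 to 9.

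Over the WT ages, the 2 probes passing from 1 to 3 months became 5 with median scaling (Syt4, Syt17, both Syt6 probes and a Syt7 probe), 4 with the percentile over the spots left on each array and 1 with quantile normalization, and 0 to 3 with single mice left out. Syt1 passed as well with dim or outlier spots kept, the percentile over all spots or the authors' values. It also did with probes required above background on every array or all 22 arrays in 1 fit. The 2 passing from 3 to 12 months became 1 with all 22 arrays in 1 fit, and 2 to 3 with mice left out. The 2 passing from 1 to 12 months became 1 with the percentile over the spots left, 1 with quantile normalization, 1 with all arrays in 1 fit and 3 with median scaling (Syt17 and both Syt7 probes in place of Syt10 and Syt1), and 0 to 2 with mice left out. With normexp they were Syt10 and a Syt6 probe. The rises of Syt11 (1 to 3 months) and Syt1 (1 to 12 months) turned to -0.06 and -0.06 with median scaling. Median and spot-wise percentiles move with the share of spots above background, which was highest at 1 month; other causes were not tested. Signal limits Syt2, the dimmer Syt6 and Syt7 probes and Syt12, which lie near background.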

Other observations

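A likeness search was also run for Syt4, chosen after its values were seen. With the mean of each age subtracted, 281 probes correlated with Syt4 above 0.9 over the 22 arrays, against 2 for Syt10. The closest genes were Minpp1 (0.984), Dcaf6 (0.984), Tmed2 (0.98), Ptges3 (0.978) and Zhx1 (0.976). Their closest probes differed between the genotypes at 3 months by -2.54, -2.58, -2.28, -2.47 and -2.78, and at 1 month by 0.06, -0.13, 0.05, -0.02 and 0.04. Over the 11 WT arrays the same probes correlated with Syt4 by 0.671, 0.887, 0.86, 0.816 and 0.659. Probes of 1 gene did not all follow: 4 probes of Ptges3 differed at 3 months by -2.47, -0.79, -0.52 and -0.06.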
